A study of Danio rerio with 8 samples.

Results

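The genes examined here encode the drug- and toxin-processing enzymes of the zebrafish liver: cytochromes P450 of families 1 to 3 (cyp1, cyp2 and cyp3) and flavin-containing monooxygenases (fmo), which carry out phase 1, and glutathione S-transferases (gst), UDP-glucuronosyltransferases (ugt) and sulfotransferases (sult), which carry out phase 2. Members were chosen by the gene symbol that RefSeq gives each accession, with cyp2k6 and cyp24a1 left out. Phase was also set by the symbol alone. Whether each member, ugt8 among them, acts on foreign compounds was not checked. This gave 80 of the 15600 rows, each a different symbol, of which 38 were phase 1 and 42 phase 2. Another 51 RefSeq symbols of the same families had no row and were not analysed here.

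The study profiled zebrafish liver RNA by 3' RNA-SAGE, in which every transcript is represented by a tag read from close to its 3' end, in 4 groups of 2 libraries. M+D+ fish carried Tg(fabp10:TA; TRE:Myc; krt4:GFP) and received doxycycline, and the submitters call their samples liver tumours. M-D+ fish were wild-type siblings on doxycycline, M+D- fish carried the transgene without doxycycline, and M-D- fish were wild-type siblings without it. In the transgenic fish the liver promoter fabp10 drives a transactivator that switches on TRE:Myc when doxycycline is present, while krt4:GFP is a skin reporter. Treatment began at 21 days after fertilization, with about 25 fish per 6 L tank. The labels do not name which Myc gene the transgene carries, and the transgene was not checked here. They also leave unsaid whether replicate libraries stem from different animals or from pooled livers, and the p-values therefore measure how far these libraries vary, a variation that could be technical.

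Phase 1 enzymes add or expose a reactive group on a foreign compound, a drug, a steroid or a fatty acid. Phase 2 enzymes then attach glutathione, glucuronic acid or sulfate, which makes the product easier to excrete. Hepatocytes are the main site of both steps, and receptors that sense foreign compounds, such as the aryl hydrocarbon receptor, set the level of many of these genes.

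Libraries held 1682372 tags (M-D+ library 1) to 6399932 tags (M+D+ library 1), so that 1 tag was worth 0.594 to 0.156 CPM (tags relative to the library total, in the authors' scaling). A CPM value is a share of the library's tags and does not scale with transcript length in this assay. A few rows take much of each library: fabp10a, the liver fatty acid-binding protein, had 187914 and 129776 CPM in M+D+, 79291 and 210286 CPM in M-D+, 169319 and 165997 CPM in M+D-, and 157241 and 162367 CPM in M-D-. The libraries were therefore also rescaled with TMM (trimmed mean of M-values), with factors of 0.696 and 0.857 for the M+D+ libraries and 1.75 and 1.43 for the M-D+ libraries. Factors of the other 4 libraries ran between 0.814 and 0.958. The M-D+ libraries stand apart in this respect, and they resembled each other least (Pearson correlation of log2 values across rows 0.891, against 0.927 to 0.967 within the other groups). Of the hepatocyte markers, 7 of 10 had a row, and their summed level was 141963 to 197254 CPM in M+D+ and 95496 to 238699 CPM in the 6 control libraries. That sum is mostly fabp10a, and in CPM 4 of the 7 (ambp, fgb, fgg and apoba) were lower in both M+D+ libraries than in every control. Divided by the TMM factors, M-D+ library 1 lay below both M+D+ libraries for ambp, fgb and apoba, and between them for fgg. The separation of these markers therefore depends on the scaling. The apolipoprotein gene apoba had 1124 and 1502 CPM in M+D+ and 2494 to 4838 CPM in the controls, and 2 of the 7 passed the test as lower in CPM. Exocrine pancreas markers, from tissue that lies against the liver, had rows for 12 of 14 and summed to 663 and 1043 CPM in M+D+, against 1233 to 4001 CPM in the controls. Divided by the TMM factors, the pancreas sum of M-D+ library 2 lay below that of M+D+ library 2. Of 11 tested pancreas markers 4 fell in M+D+, and the part of these hepatocyte and pancreas markers in the results below was not tested.

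Of the 80 genes, 41 reached 5 CPM in 2 or more libraries and were tested, 21 of phase 1 and 20 of phase 2. By family these were 2 of 4 cyp1 genes, 16 of 29 cyp2 genes, 2 of 4 cyp3 genes, the 1 fmo gene, 10 of 16 gst genes, 6 of 13 ugt genes and 4 of 13 sult genes. The other 39 were too low to test, and 30 of them averaged under 1 CPM. The highest single value among the untested genes was 16.1 CPM, for cyp2aa7 in M-D+ library 2. Expression was uneven among the tested genes as well. Of the summed CPM over all 80 genes, cyp1a and cyp2ad2 made up 52.2%, and only 8 genes averaged 100 CPM or more.

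**Figure D1:**
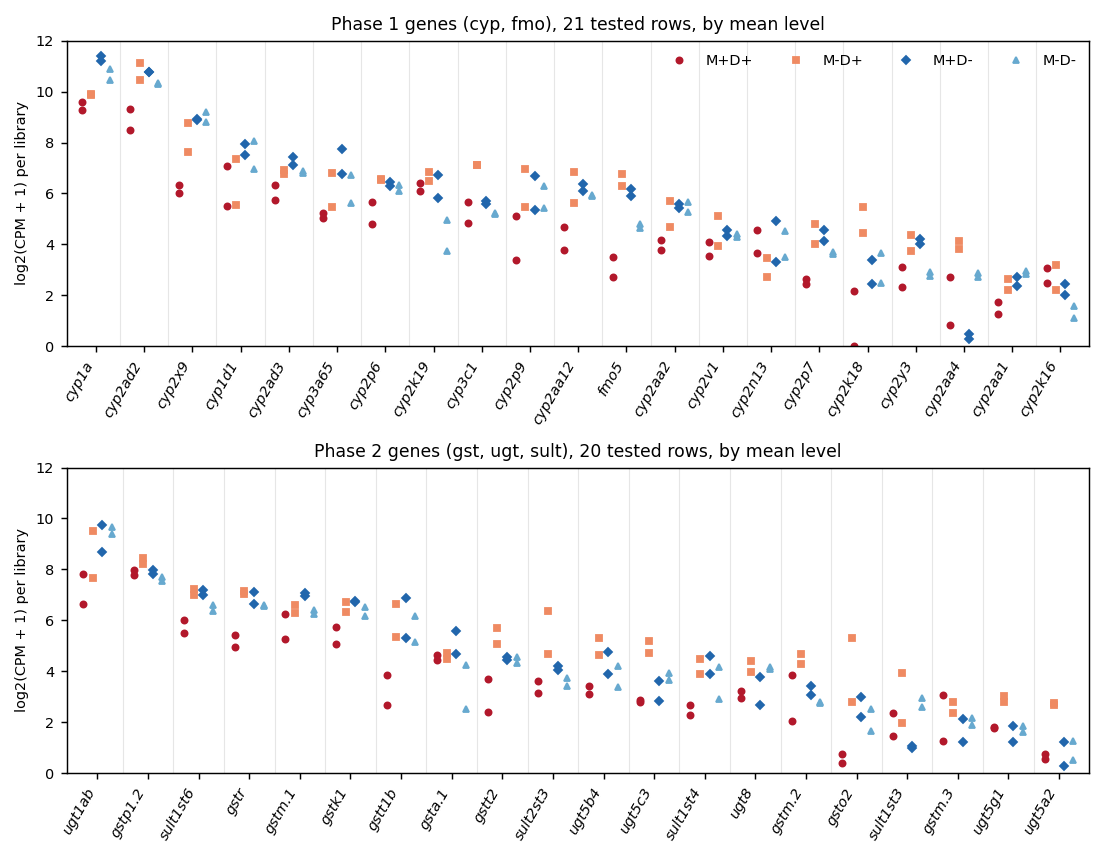
Level of each tested gene in each library as log2(CPM + 1), ordered by mean level, with phase 1 genes in the upper panel and phase 2 genes in the lower one. Each point is 1 library; red circles are M+D+, orange squares M-D+, dark blue diamonds M+D- and light blue triangles M-D-. In CPM both M+D+ points lie below all control points for 13 of 21 phase 1 genes and 7 of 20 phase 2 genes. The same holds for 26.9% of all tested rows.

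Relative to the average of the 3 control groups, M+D+ had 20 of the 41 tested genes that fell and 0 that rose (limma on log2(CPM + 1), adjusted p below 0.05). The genes that fell were 11 of 21 in phase 1 and 9 of 20 in phase 2. Over all 4577 tested rows 20.7% fell and 2.32% rose. In bulk tissue, fewer cells of a type and less RNA per cell cannot be told apart. After TMM scaling 8 of the 41 fell, where 10.8% of all rows were called, 255 lower and 238 higher, compared with 946 lower and 106 higher in CPM. The quasi-likelihood test of edgeR called 9.81% of all rows, 149 lower (3.26%) and 300 higher (6.55%). By that test 4 of the 41 fell: fmo5, cyp2x9, cyp2ad2 and gstr, which were also called in CPM and after TMM scaling. By DESeq2 8 of the 41 fell, beside 208 of all rows lower (4.54%) and 326 higher (7.12%). Leaving out M+D+ library 1 kept fmo5 and gstr alone among the calls. The count was 10 or 11 when 1 of the M+D- libraries was left out, library 1 or library 2, and 12 without M-D- library 2. With the M-D+ group left out of the control average 11 fell. A refit without 1 library leaves a group with 1 library and every row with fewer residual degrees of freedom. The share of all rows called in such refits is not given here, so their counts do not single out these genes.

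The median log2 difference was -1.17 over the tested phase 1 genes, -1.07 over the phase 2 genes and -0.57 over all tested rows. TMM scaling moved the median of all rows to -0.12, a shift of 0.45, and the medians of phase 1 and phase 2 to -0.70 and -0.60. TMM scaling divides every row of a library by the same factor. The distance of each phase from the median row could therefore hardly change, and its steadiness is no check of the scaling. Below that median row lay 32 of the 41 genes, 18 of phase 1 and 14 of phase 2. Counting only separation of the libraries in CPM, both M+D+ libraries lay below all 6 control libraries for 20 of the 41 genes. Of all tested rows 26.9% did so. For 0 of the 41 did both lie above, against 3.87% of all tested rows. Of all 80 genes, with the untested ones included, 24 lay below and 1 lay above. The matching share over all 15600 rows is not given here, so this count does not single out these genes.

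**Figure D2:**
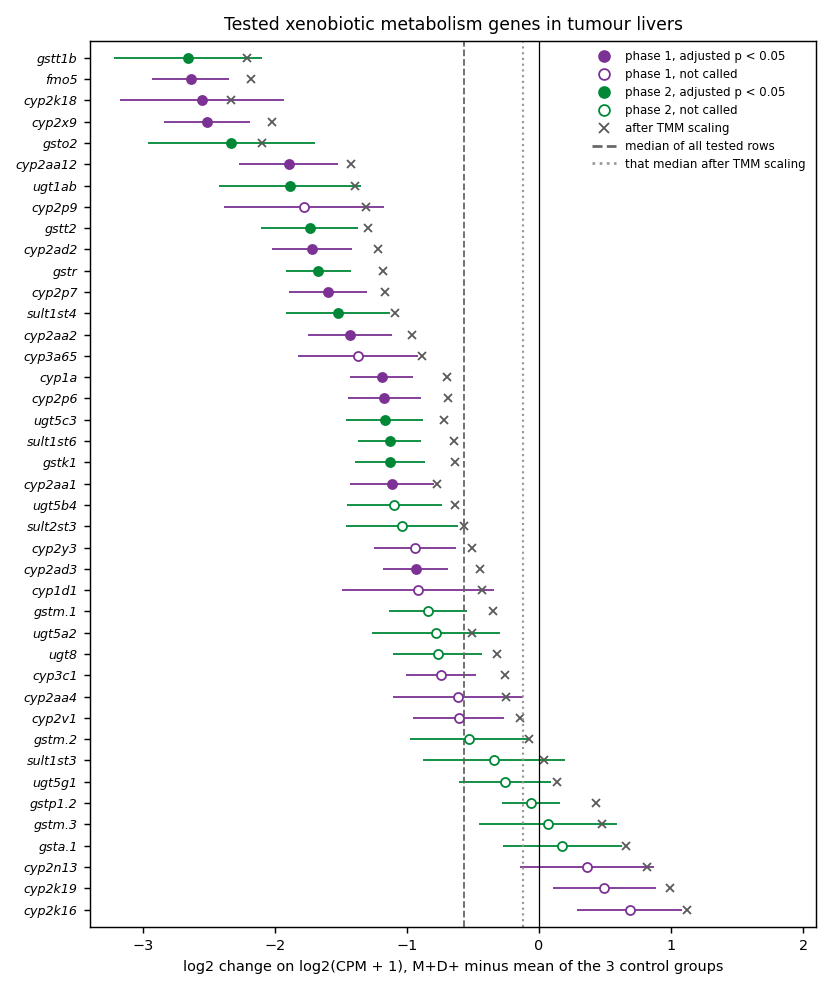
Log2 difference of each tested gene, M+D+ minus the averaged 3 control groups, on the log2(CPM + 1) scale. Circles with bars are the limma estimate and its standard error, purple for phase 1 and green for phase 2, filled where the adjusted p was below 0.05; crosses are the same difference after TMM scaling. The dashed line marks the median of all tested rows at -0.57 and the dotted line that median after TMM scaling at -0.12; filled circles are all to the left of zero.

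The most abundant member was cyp1a, the classical target of the aryl hydrocarbon receptor, whose enzyme oxidizes planar aromatic compounds. It had 613 and 769 CPM in M+D+, 953 and 929.9 CPM in M-D+, 2372 and 2686 CPM in M+D-, and 1419.5 and 1883 CPM in M-D-. In CPM the order of the groups was M+D+ lowest, then M-D+, then M-D-, then M+D-, with no overlap between any of them. Divided by the TMM factors, both M-D+ libraries lay below both M+D+ libraries, so the order of these groups depends on the scaling. Relative to the averaged controls cyp1a fell by 1.19 on the log2 scale (SE 0.24; limma adjusted p = 0.0149), 2.29-fold lower. That call was lost after TMM scaling, where the difference was -0.70 with a limma adjusted p of 0.0972. A second family 1 gene, cyp1d1, had 44.8 and 136 CPM in M+D+, 45.8 and 160.4 CPM in M-D+, 246 and 179.7 CPM in M+D-, and 124 and 266 CPM in M-D-. Its groups overlapped, and its difference of -0.92 did not pass the test (limma adjusted p = 0.262). The untested cyp1c1 and cyp1c2 stayed under 8 CPM in every library, with a highest value of 7.93 CPM.

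The cyp2 family, which in fish as in mammals is the largest group of xenobiotic P450s, fell in 9 of its 16 tested genes. The second most abundant member, cyp2ad2, belongs to a set of fish P450s related to human CYP2J2, an arachidonic acid epoxygenase. It had 360.2 and 635 CPM in M+D+, 2244 and 1392 CPM in M-D+, 1747 and 1737 CPM in M+D-, and 1246 and 1299 CPM in M-D-. Both M+D+ libraries were far below every control library, and the log2 difference was -1.72 (SE 0.30; limma adjusted p = 0.0111), 3.29-fold lower.

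The largest fall of an abundant P450 among the called genes was that of cyp2x9, a family 2 enzyme of fish. It had 64.1 and 80.7 CPM in M+D+, 435 and 198 CPM in M-D+, 487 and 472 CPM in M+D-, and 594 and 441 CPM in M-D-. The M+D+ values were the lowest 2 of the 8, and M-D+ library 2 was the lowest of the controls. The difference was -2.52 (SE 0.33; limma adjusted p = 0.0062), 5.72-fold lower, and it passed after TMM scaling (limma adjusted p = 0.0105) and by edgeR (adjusted p = 0.0193). Without M+D+ library 1 the limma adjusted p was 0.0543 for cyp2x9 and 0.0860 for cyp2ad2.

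Further cyp2 genes fell from lower levels. The value of cyp2aa12 was 12.8 and 24.8 CPM in M+D+, against 48.7 and 114.6 CPM in M-D+, 82.1 and 67.9 CPM in M+D-, and 57.9 and 60.9 CPM in M-D-. In CPM M+D+ did not overlap with the controls. Its difference was -1.90 (limma adjusted p = 0.0147; 0.0530 after TMM scaling). For cyp2p7, another CYP2J2 relative, M+D+ had 4.38 and 5.24 CPM, and M-D+ 26.8 and 14.9 CPM, M+D- 16.3 and 22.8 CPM and M-D- 11.4 and 11.9 CPM. The M+D+ libraries were again below all others (-1.60; limma adjusted p = 0.0120; 0.0331 after TMM scaling). Also called were cyp2aa2 at -1.43 and cyp2ad3 at -0.94. Named after their values were seen, since they lie outside the naming rule, the other 2 called cyp2 genes outside the cyp2k group were cyp2p6 at -1.17 and cyp2aa1 at -1.11. None of these 4 was called after TMM scaling, by edgeR or by DESeq2; limma adjusted p with TMM was 0.145 for cyp2aa2, 0.265 for cyp2ad3, 0.119 for cyp2p6 and 0.198 for cyp2aa1.

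A case apart within the family was the cyp2k group. Its member cyp2k18 was listed at 0 and at 3.49 CPM in M+D+, and had 42.8 and 20.8 CPM in M-D+, 9.36 and 4.42 CPM in M+D-, and 4.54 and 11.5 CPM in M-D-. With 0 tags in M+D+ library 1, where 3 tags are worth 0.469 CPM, the fitted difference of -2.55 (limma adjusted p = 0.0255) depends on the added constant of 1 CPM. Its neighbour cyp2k19 had 67.3 and 84.5 CPM in M+D+, 88.6 and 113 CPM in M-D+, 55.4 and 106 CPM in M+D-, and 12.3 and 30.4 CPM in M-D-. Only the M-D- libraries were apart from the rest, and the difference of M+D+ from the averaged controls was 0.49 (limma adjusted p = 0.364).

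Genes that stand side by side in the RefSeq gene order shared the outcome of the test in some groups of neighbours and differed in others. The outcomes are those of the CPM fit, in which 20.7% of all tested rows fell. In the row of 11 CYP2J2-related genes that runs from cyp2n13 to cyp2j20, 7 were tested and 4 fell, with log2 differences of -1.78 to 0.36. In the row of 7 genes from cyp2k18 to cyp2k8, 3 were tested and 1 fell, with differences of -2.55 to 0.69. Of the 5 genes from cyp2aa12 to cyp2aa4, 2 were tested and 1 fell, with differences of -1.90 to -0.61. Of the 5 genes from cyp2aa8 to cyp2aa3, 2 were tested and 2 fell, with differences of -1.43 to -1.11. These were cyp2aa1 and cyp2aa2, and neither call was kept after TMM scaling, by edgeR or by DESeq2. The 3 neighbouring gstm genes were all tested and 0 fell. Tags that neighbouring copies share at their 3' ends could not be assigned to one copy, and the sources used here do not say how the authors treated them.

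In the cyp3 family, whose mammalian members handle many drugs, neither tested gene passed the test in M+D+ against the controls. The zebrafish CYP3A enzyme gene cyp3a65 had 32.0 and 37.0 CPM in M+D+, 43.4 and 110.3 CPM in M-D+, 213 and 108 CPM in M+D-, and 47.9 and 105 CPM in M-D-. In CPM the M+D+ libraries were the lowest of the 8, but the spread among the controls was wide and the difference of -1.37 had a limma adjusted p of 0.0619. Divided by the TMM factors, M-D+ library 1 lay below both M+D+ libraries. The other gene, cyp3c1, had 27.8 and 49.2 CPM in M+D+, 139 and 138 CPM in M-D+, 51.6 and 46.4 CPM in M+D-, and 35.2 and 36.9 CPM in M-D-. Here the M-D+ libraries stood above all others, while M+D+ overlapped with both groups that had no doxycycline.

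The flavin-containing monooxygenase fmo5, a microsomal enzyme that in mammals works mainly as a Baeyer-Villiger oxygenase, had the smallest p of the 41 genes. It had 10.5 and 5.59 CPM in M+D+, 77.9 and 109 CPM in M-D+, 58.6 and 70.5 CPM in M+D-, and 26.6 and 23.9 CPM in M-D-. In CPM no groups overlapped: M+D+ was lowest, then M-D-, then M+D-, then M-D+. Its difference was -2.64 (SE 0.29; limma adjusted p = 0.0045), 6.23-fold lower. It was called under all 16 other settings tried, as was gstr, and no other member was.

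In phase 2, 5 of 10 tested gst genes, 2 of 6 ugt genes and 2 of 4 sult genes fell in the CPM fit. After TMM scaling gstr, gstt1b and gstt2 were called, by edgeR gstr, and by DESeq2 gsto2, gstr and gstt1b, and none of these 3 fits called a ugt or sult gene. Among the glutathione S-transferases, gstr, of a class found in fish and not in mammals, had 41.4 and 30.0 CPM in M+D+, 143 and 128 CPM in M-D+, 139 and 99.9 CPM in M+D-, and 93.1 and 95.4 CPM in M-D-. Both M+D+ libraries were below every control library, and the difference was -1.67 (SE 0.25; limma adjusted p = 0.0082), 3.18-fold lower. After TMM scaling the difference was -1.18 (limma adjusted p = 0.0355).

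Both theta-class genes fell as well. The level of gstt1b was 5.31 and 13.3 CPM in M+D+, 39.8 and 99.2 CPM in M-D+, 115 and 38.2 CPM in M+D-, and 34.1 and 70.7 CPM in M-D-. The level of gstt2 was 4.22 and 11.9 CPM in M+D+, 51.1 and 32.6 CPM in M-D+, 22.7 and 20.6 CPM in M+D-, and 22.3 and 19.1 CPM in M-D-. In both genes the M+D+ libraries lay below all controls, at -2.66 for gstt1b and -1.74 for gstt2, each with a limma adjusted p of 0.0170. The controls of gstt1b varied about as much within a group as between groups.

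The kappa-class gene gstk1, whose mammalian enzyme sits in mitochondria and peroxisomes, had 32.8 and 52.4 CPM in M+D+ and 71.6 to 107 CPM in the controls (-1.13; limma adjusted p = 0.0227; 0.184 after TMM scaling). Omega-class gsto2 was listed at 0.31 and 0.70 CPM in M+D+, both under the worth of 3 tags in those libraries (0.469 and 1.05 CPM). It had 5.94 and 38.1 CPM in M-D+, 3.59 and 6.85 CPM in M+D-, and 4.77 and 2.17 CPM in M-D-, and it passed the test (limma adjusted p = 0.0339; 0.0810 after TMM scaling). The calls were lost in 8 of 16 other settings for gstk1 and in 10 of 15 for gsto2. M-D+ library 2 was far above every other library for gsto2, and its fold is not given because both M+D+ values are at the counting limit.

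Not every transferase was lower. The pi-class gene gstp1.2, a known target of the oxidative-stress factor Nrf2, had 249.7 and 221 CPM in M+D+, 295 and 344 CPM in M-D+, 251 and 226 CPM in M+D-, and 207 and 183 CPM in M-D-. It was the most abundant glutathione S-transferase, and in CPM M+D+ fell inside the range of the controls (-0.06; SE 0.22; limma adjusted p = 0.849). The sign of that difference turned after TMM scaling, at 0.43 (limma adjusted p = 0.334). The mu-class gene gstm.1 had 74.1 and 37.4 CPM in M+D+ and 74.1 to 133 CPM in the controls, and its difference of -0.84 missed the threshold (limma adjusted p = 0.0725).

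Of the glucuronosyltransferases, ugt1ab, a member of the family that conjugates phenols and bilirubin, was the most abundant phase 2 gene. It had 99.2 and 223 CPM in M+D+, 200.3 and 731 CPM in M-D+, 855 and 414 CPM in M+D-, and 818 and 672 CPM in M-D-. M-D+ library 1 lay between the 2 M+D+ libraries, so the groups overlapped, and the difference of -1.89 (SE 0.54; limma adjusted p = 0.0396) was lost after TMM scaling (limma adjusted p = 0.145). The family 5 gene ugt5c3 had 6.25 and 5.94 CPM in M+D+, 35.1 and 25.4 CPM in M-D+, 11.4 and 6.19 CPM in M+D-, and 14.3 and 11.7 CPM in M-D-. It also overlapped, with M+D- library 2 between the M+D+ values (-1.17; limma adjusted p = 0.0271). For ugt5b4 the difference was -1.10 and did not pass (limma adjusted p = 0.0598).

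Among the sulfotransferases, sult1st6, of the family that sulfates phenols, had 44.8 and 63.2 CPM in M+D+, 148 and 125 CPM in M-D+, 127 and 147 CPM in M+D-, and 95.9 and 80.7 CPM in M-D-. M+D+ was below every control library (-1.13; SE 0.24; limma adjusted p = 0.0175), though not after TMM scaling at the same threshold (limma adjusted p = 0.131). From a lower level sult1st4 had 5.31 and 3.84 CPM in M+D+ and 6.59 to 23.3 CPM in the controls (-1.52; limma adjusted p = 0.0300). The hydroxysteroid sulfotransferase family gene sult2st3 had 7.81 and 11.2 CPM in M+D+, 81.4 and 24.2 CPM in M-D+, 15.7 and 17.2 CPM in M+D-, and 9.77 and 12.4 CPM in M-D-. Its M+D+ libraries overlapped with M-D-, and its difference of -1.04 did not pass (limma adjusted p = 0.107).

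Setting phase 1 against phase 2 by summed level gave no separation of M+D+ from the controls. The phase 1 sum over all 38 genes was 1382 and 2071 CPM in M+D+, 4503 and 3798 CPM in M-D+, 5789 and 5899 CPM in M+D-, and 3907 and 4552 CPM in M-D-. The phase 2 sum over all 42 genes was 650.2 and 749 CPM in M+D+, 1322 and 1909 CPM in M-D+, 1891 and 1326 CPM in M+D-, and 1537 and 1405 CPM in M-D-. In CPM both M+D+ libraries lay below all 6 control libraries for each phase. Divided by the TMM factors, the phase 2 sum of M-D+ library 1 lay below both M+D+ libraries. The separation of the phase 2 sums therefore depends on the scaling, while that of the phase 1 sums was kept. Together the genes took 0.203% and 0.282% of the tags in M+D+, while the control libraries gave them 0.544% to 0.768%.

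The ratio of phase 1 to phase 2, which does not depend on how libraries are scaled, came to 2.13 and 2.76 for the M+D+ libraries, 3.41 and 1.99 for M-D+, 3.06 and 4.45 for M+D-, and 2.54 and 3.24 for M-D-. M+D+ lay within the range of the controls. The difference in log2 ratio, M+D+ minus the averaged control groups, was -0.32, less than the pooled SD of 0.38 between libraries of 1 group. The ratio depended on the most abundant gene of each phase: with cyp1a and ugt1ab left out, the M+D+ libraries had ratios of 1.39 and 2.47 and the control libraries ratios of 2.43 to 3.64, a log2 difference of -0.80. M+D+ library 2 still overlapped with M-D+ library 2. No test was made on these sums, since their members were chosen.

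**Figure D3:**
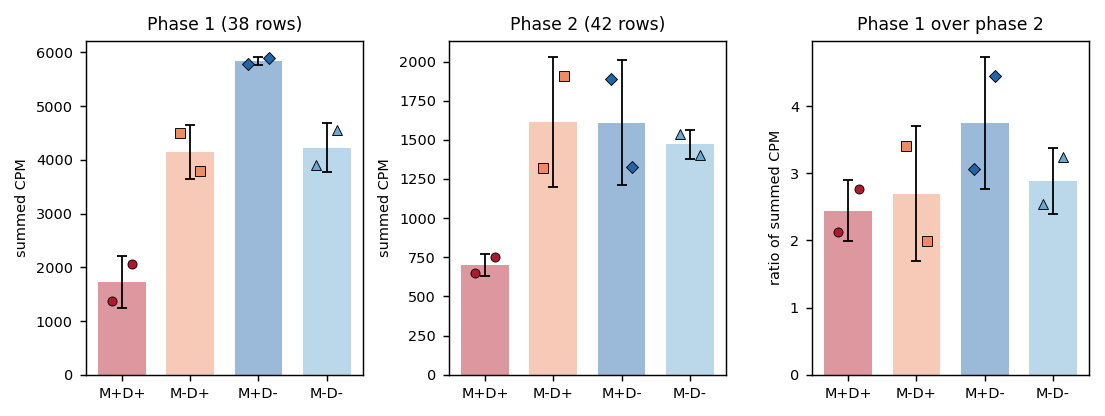
Summed CPM of the 38 phase 1 genes, of the 42 phase 2 genes, and the ratio of the sums, by group. Bars are means of 2 libraries, error bars are SD and points are single libraries. Phase 1 averaged 1726 CPM in M+D+ and 4151 to 5844 CPM in the control groups, phase 2 averaged 699.7 CPM in M+D+ and 1471 to 1616 CPM in the control groups, and the ratios of M+D+ lie inside the range of the controls.

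The 3 control groups allow the transgene and doxycycline to be taken apart. The 3 comparisons of M+D+ share its libraries, so they are not independent of each other. In M+D+ against M-D+, where both groups received doxycycline, 22 of 41 genes fell and 0 rose by limma, 11 in each phase. That is 53.7% of the genes, beside 41.7% of all tested rows lower and 2.49% higher, so the share was near the background. Among the falls, ugt5a2, named after its values were seen, reached 5 CPM in M-D+ alone (5.35 and 5.66 CPM). Outside M-D+, gsto2 reached 5 CPM only in M+D- library 2 (6.85 CPM). Both passed the filter only because they were high in M-D+, so their falls against M-D+ are no support. After TMM scaling, with 14.9% of all rows called, 324 of them lower and 358 higher in place of 1909 lower and 114 higher in CPM, 2 genes fell (fmo5 and cyp2k18) and 1 rose. The gene that rose was cyp2n13, named after its values were seen, with 11.6 and 22.7 CPM in M+D+ and 10.1 and 5.66 CPM in M-D+ (1.92; limma adjusted p = 0.0479). By edgeR, which called 13.1% of all rows, 277 lower and 324 higher, fmo5 and gsto2 fell. DESeq2 called 15.4% of all rows, 305 lower and 400 higher, and of the 41 genes 4 lower and 1 higher. Without M+D+ library 1 the CPM count was 11.

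The fall of fmo5 in M+D+ against M-D+ was -3.42 (SE 0.35; limma adjusted p = 0.0028), 10.7-fold lower, and that of cyp3c1 was -1.87 (SE 0.33; limma adjusted p = 0.0056). For cyp3c1 the difference after TMM scaling was -0.86 and did not pass (limma adjusted p = 0.0974). In this comparison cyp1a differed by -0.45 in CPM (limma adjusted p = 0.226). The M-D+ libraries at 953 and 929.9 CPM were closer to M+D+ than to any library without doxycycline. Divided by the TMM factors, both M-D+ libraries lay below M+D+, so the sign of this difference depends on the scaling.

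In M+D+ against M+D-, the effect of doxycycline in transgenic fish, 6 genes fell and 0 rose: cyp1a, cyp2ad2, cyp2x9, cyp2p7 and fmo5 of phase 1 and gstr of phase 2. Over all tested rows 2.34% fell and 0.393% rose. The median difference was -1.42 over phase 1 genes, -0.90 over phase 2 genes and -0.30 over all rows. The largest of the called differences were those of fmo5 (-2.91; limma adjusted p = 0.0174) and cyp2x9 (-2.72; limma adjusted p = 0.0236), and cyp1a was 3.67-fold lower (-1.88; SE 0.29; limma adjusted p = 0.0239). After TMM scaling cyp1a, cyp2x9 and fmo5 remained, where 1.73% of all rows were called, 55 lower and 24 higher compared with 107 lower and 18 higher in CPM. By edgeR cyp2x9 and fmo5 remained, with 0.852% of all rows called, 21 lower and 18 higher. DESeq2 called 8 of the 41, all lower, beside 114 of all rows lower and 94 higher. The CPM count was 0 without either M+D- library, 1 without M+D+ library 1 or without either M-D- library, and 11 and 10 without M-D+ libraries 1 and 2.

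In wild-type siblings, M-D+ against M-D-, 3 of 41 genes rose and 0 fell, all of phase 1: cyp3c1 (1.91; SE 0.33; limma adjusted p = 0.0371), fmo5 (1.83; SE 0.35; limma adjusted p = 0.0384) and cyp2k19 (2.31; SE 0.48; limma adjusted p = 0.0401). Over all rows 9.22% rose and 0.568% fell, so the share of 7.32% among the genes was near the background. TMM scaling left 0 of the 41 called, and 0.175% of all rows, 0 higher and 8 lower, in place of 422 higher and 26 lower in CPM. At an unadjusted p below 0.05 there were 15 of the 41 in CPM, beside 1751 of all 4577 rows. After TMM scaling there were 11, beside 801 of all rows. By edgeR, which also called 0, there were 10, beside 822 of all rows. These counts therefore do not single out the genes. DESeq2 called 3.23% of all rows, 109 lower and 39 higher. It called 2 other genes, both lower in M-D+: cyp1a (-1.55, DESeq2 adjusted p = 0.00118) and cyp2x9 (-1.50, DESeq2 adjusted p = 0.0343). In CPM, limma gave -0.80 for each of them, and neither passed. The limma count was 0 when M-D+ library 1 or any 1 of the 4 libraries without doxycycline was left out.

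Without doxycycline, M+D- against M-D-, limma and edgeR called 0 of 41 genes, and limma called 0% of all rows. At an unadjusted p below 0.05 limma had 6 of the 41, 4 of phase 1 and 2 of phase 2, beside 419 of all 4577 rows. By edgeR there were 6, beside 464 of all rows. DESeq2 called 0.787% of all rows, 21 lower and 15 higher. Of the 41 it called 2: cyp2k19 higher (1.92) and cyp2aa4, named after its values were seen, lower (-4.32), both with a DESeq2 adjusted p of 0.0359. For cyp2aa4 the values were 0.40 and 0.22 CPM in M+D-, under the worth of 3 tags, and 6.36 and 5.64 CPM in M-D-.

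The effect of doxycycline differed between the genotypes for 7 of the 41 genes by limma, and for each the interaction was negative: 5 of phase 1 (fmo5, cyp2ad2, cyp2p7, cyp2y3 and cyp3c1) and 2 of phase 2 (gstr and sult1st6). Over all tested rows 7.97% had a negative and 0.262% a positive interaction. The interaction was -4.74 for fmo5 (SE 0.50; limma adjusted p = 0.0412), since doxycycline went with a higher level in wild-type siblings (1.83) and a lower level in transgenic fish (-2.91). For cyp3c1 it was -2.31 (SE 0.46; limma adjusted p = 0.0428), with the difference lying mostly in the M-D+ libraries. For cyp1a it was -1.08 and did not pass (limma adjusted p = 0.102), with lower values on doxycycline in both genotypes. After TMM scaling and by edgeR 0 of the 41 were called, and DESeq2, at 3.58% of all rows, called fmo5 alone. At an unadjusted p below 0.05 there were 11 of the 41 after TMM scaling and 11 by edgeR. Over all 4577 rows these counts were 704 and 707. TMM scaling called 0.131% of all rows and edgeR 0%. The direction over all rows turned with the scaling: 365 negative and 12 positive interactions in CPM, 0 and 6 after TMM scaling, and 42 and 122 by DESeq2. Leaving out M+D+ library 1, or any 1 of the 4 libraries that had no doxycycline, gave a limma count of 0, and leaving out M-D+ library 1 gave 12.

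**Figure D4:**
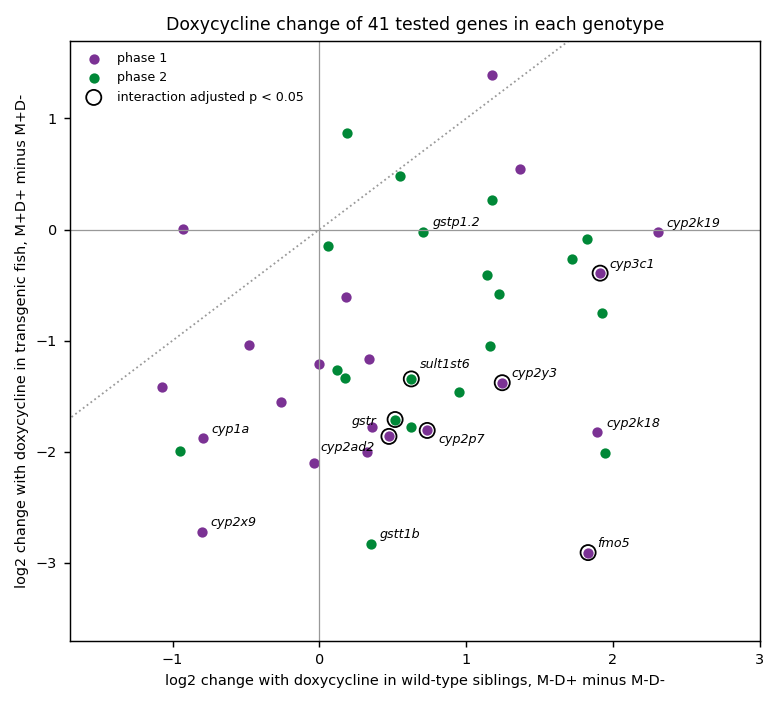
Change of each of the 41 tested genes with doxycycline, in log2(CPM + 1): M-D+ minus M-D- in wild-type siblings on the horizontal axis and M+D+ minus M+D- in transgenic fish on the vertical axis. Purple points are phase 1 and green points phase 2, rings mark an interaction with adjusted p below 0.05, and the dotted line marks equal change. In these CPM values 38 of the 41 genes lie below the dotted line, as do 3935 of all 4577 tested rows (29 and 2462 after TMM scaling), with fmo5 farthest at 1.83 and -2.91.

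Other genes that serve or regulate these enzymes were counted in the same test of M+D+, beside the same 20.7% lower and 2.32% higher over all rows. Of 9 tested electron donors and partners of P450, 5 fell and 0 rose, with a median of -1.30, against -0.57 over all rows. They included 3 cytochrome b5 reductase genes: cyb5r1 (-1.80; limma adjusted p = 0.0141), cyb5r2 (-1.81; limma adjusted p = 0.0167) and cyb5r3 (-1.45; limma adjusted p = 0.0182). Not called, and named after their values were seen, were pgrmc2 (-1.48), cyb5a (-0.70), fdx2 (-0.04) and the P450 oxidoreductase gene pora. For pora the difference was 0.06 (limma adjusted p = 0.876), and 0.53 after TMM scaling (limma adjusted p = 0.287). After TMM scaling 2 of the 9 fell, by edgeR 1 and by DESeq2 1, and in CPM without M+D+ library 1 the count was 0. Of 8 other P450 genes 4 fell, and 3 did after TMM scaling, led by the brain cholesterol hydroxylase relatives cyp46a1.3 (-2.51) and cyp46a1.2 (-1.68) and by cyp27a1.2 (-1.66), a relative of the sterol 27-hydroxylase of mammals. Without M+D+ library 1, 0 of these 8 were called and their median was -0.60 in place of -1.21.

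Of 13 tested genes that supply the cosubstrates of conjugation, 4 fell and 0 rose. The UDP-glucose dehydrogenase gene ugdh, which makes the glucuronic acid donor, had 13.6 and 8.03 CPM in M+D+, 131 and 113 CPM in M-D+, 37.1 and 32.3 CPM in M+D-, and 62.5 and 62.7 CPM in M-D-. Both M+D+ values were below every control, and M-D+ was highest (-2.51; SE 0.26; limma adjusted p = 0.0041; 0.0101 after TMM scaling). The cystathionine beta-synthase gene cbsa, on the route from methionine to glutathione, differed by -1.64, and gclm, a subunit of the enzyme that starts glutathione synthesis, by -1.11. After TMM scaling 2 of these 13 fell and 1 rose. The CPM count of falls was 1 when M+D+ library 1, M+D- library 1 or the whole M-D+ group was left out. It was 2 with M+D- library 2 or M-D- library 2 omitted, and 6 when M-D+ library 2 was dropped.

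Of 14 tested receptors and regulators 1 rose and 1 fell. The gene that rose was hsp90ab1, a chaperone that holds the aryl hydrocarbon receptor among many other clients, with 431 and 682 CPM in M+D+ and 165 to 312 CPM in the controls (1.35; limma adjusted p = 0.0170), a call lost without either M+D+ library. The gene that fell was ptges3b, a cochaperone, with 1.09 and 1.75 CPM in M+D+, 22.6 and 16.8 CPM in M-D+, 1.99 and 0.88 CPM in M+D-, and 4.32 and 5.20 CPM in M-D-. Its M+D+ libraries overlapped with M+D-, and the call (-1.45; limma adjusted p = 0.0222) was lost after TMM scaling (limma adjusted p = 0.0633). Of 28 other oxidation, reduction and hydrolysis enzymes 9 fell and 1 rose, and after TMM scaling 1 fell and 2 rose. The falls with the smallest p were dhrs1 (-1.85), akr7a3 (-1.37) and aldh2.1 (-1.55), and the rise was dpydb (limma adjusted p = 0.0311), of the enzyme that breaks down pyrimidines, with 8.75 and 12.9 CPM in M+D+ and 1.52 to 6.17 CPM in the controls. Of 18 antioxidant and Nrf2 target genes 4 fell and 0 after TMM scaling, with the smallest p for txnb (-1.20), sod1 (-1.07) and gpx1a (-0.90). Of 7 transporters 1 fell, slc22a2 (-0.99), and after TMM scaling 1 rose instead. None of 6 other conjugation enzymes was called by limma, with comtb at -1.25 (limma adjusted p = 0.0658). Without M+D+ library 1, no receptor or regulator, other oxidation, reduction or hydrolysis enzyme, antioxidant or transporter gene was called in either direction in CPM. Leaving out any other library gave 2 to 6 falls for the 9 electron donors and partners, 4 to 12 for the 28 oxidation, reduction and hydrolysis enzymes, and 0 to 6 for the 18 antioxidant genes.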

How the data were processed

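RNA-SAGE tags of 8 liver libraries were deposited by the authors as CPM per RefSeq accession, in 1 file per library. The aligner, the genome build and the rule for tag assignment were not given in the sources used here. A row absent from a file was taken as 0. The values are whole multiples of the worth of 1 tag in each library (100% of values within 0.1 tag), which gave the tag totals. Symbols came from the RefSeq gene table by accession and serve for names and for gene order only. Of 15600 rows 10410 had a symbol.

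Rows with at least 5 CPM in 2 or more libraries (4577) entered limma 3.58.1 in R 4.3.3 on log2(CPM + 1), with a variance trend, 1 fit of 4 group means (4 residual and 4.07 prior degrees of freedom), two-sided tests and Benjamini-Hochberg adjustment over all rows at 0.05. A fold on this scale understates the change of low genes. Alternatives were TMM scaling, edgeR 4.0.16 quasi-likelihood and DESeq2 1.42.0 on the recovered tags, a pseudocount of 0.5, no filter, a filter at 10 CPM, the replicate number as a block, and leaving out each library or M-D+ as a control. The fits were tried on simulated data with a fixed spread, equal numbers of rises and falls, and no built-in difference in TMM factors between groups. That trial therefore does not cover the scaling differences of these libraries. Replicates of every group varied beyond counting noise, with a chi-square over rows of 33.3 or more per degree of freedom. Each library was counted as a sample, though this excess does not show that the libraries come from separate animals. The worth of 3 tags was taken as the counting limit, which covers counting error only.

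Genes named are those called in any comparison (up to 12 per comparison and direction by p), the 12 most abundant, and up to 3 per family by p. From each list of related genes, up to 3 rises and 3 falls by p were named, or up to 2 values where none was called. The members, the lists and the rule were chosen with earlier results of these data known. No sequences or coordinates are given, because no sequence table or genome was used here.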

Additional observations from a re-analysis of the deposited data

Results flagged for a closer look

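The change with doxycycline differed between transgenic fish and wild-type siblings, by limma's interaction test at an adjusted p below 0.05, for 7 genes. The log2 interaction was -4.7389 for fmo5, -2.2262 for gstr, -2.5434 for cyp2p7, -2.3052 for cyp3c1, -2.6246 for cyp2y3, -1.9711 for sult1st6 and -2.3364 for cyp2ad2. Adjusted p-values ran from 0.0412 to 0.0455. For cyp2y3, the one gene of these not described above, M+D+ had 4.06 and 7.68 CPM, M-D+ 12.5 and 19.9 CPM, M+D- 17.5 and 15.0 CPM, and M-D- 5.68 and 6.51 CPM. M-D+ and M+D- both lay above M+D+ and M-D-, which overlapped. The M-D+ libraries, whose TMM factors of 1.75 and 1.43 are the highest of the 8, enter every one of these values, and after TMM scaling 0 of the 7 passed.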

How the results depend on the processing

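Counts of called genes moved by more than 1.5 times under several settings. For M+D+ against the 3 control groups (20 genes), they were 8 after TMM scaling, 4 by edgeR, 8 by DESeq2, 13 with no filter (12 lower and sult2st2 higher), 11 with M-D+ left out of the controls, and 2 to 25 with 1 library left out. For M+D+ against M-D+ (22) they were 3, 2 and 5 by TMM, edgeR and DESeq2, and 11 to 23 with 1 library left out. For M+D+ against M+D- (6) they were 3 after TMM scaling, 2 by edgeR, 3 with no filter, 3 with the replicate block, and 0 to 11 with 1 library left out. For M-D+ against M-D- (3) they were 0 after TMM scaling, by edgeR, with no filter and with the replicate block, and 0 to 3 with 1 library left out; DESeq2 called 2 others. For M+D- against M-D- (0) DESeq2 called 2. For the interaction (7) they were 0 after TMM scaling, by edgeR and with no filter, 1 by DESeq2, 1 with the replicate block, 11 with the 10 CPM filter, and 0 to 12 with 1 library left out. With a group of 1 library, that library is assumed to vary like the other groups. The share of all rows called in those refits is not given here. The log2 ratio of phase 1 to phase 2 (-0.32) was -0.80 without the most abundant gene of each phase. The difference of gstp1.2 (-0.06) changed sign, to 0.43 by TMM, 0.49 by edgeR, 0.54 by DESeq2 and 0.13 with M-D+ left out, and ran from -0.15 to 0.025 with an M+D+ library left out. The cause of these changes was not tested. Deviations of same-numbered libraries from their group means correlated at -0.33 to 0.04 between groups, with -0.33 between M-D+ and M+D+. These values cannot show whether libraries were paired or share a batch. With 2 libraries per group, and 1 tag worth up to 0.594 CPM, differences among the genes under 20 CPM are the least precise.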

Other observations

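One gene among those too low to test was above all controls in M+D+ and was picked out after its values were seen. The sulfotransferase gene sult2st2, of the hydroxysteroid family, had 4.69 and 10.1 CPM in M+D+, 0 and 0.23 CPM in M-D+, 1.59 and 1.11 CPM in M+D-, and 0.45 and 0 CPM in M-D-. In the fit with no filter it rose (log2 difference 2.44; limma adjusted p = 0.0173). Its relative sult2st3 had 7.81 and 11.2 CPM in M+D+ and 9.77 to 81.4 CPM in the controls.

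The quinone reductase gene nqo1, a target of Nrf2 like gstp1.2 and also picked out after its values were seen, had 2.50 and 7.68 CPM in M+D+ and 11.3 to 61.2 CPM in the controls (-2.08; limma adjusted p = 0.0168, and 0.0501 after TMM scaling). In the same libraries gstp1.2 stayed inside the range of its controls in CPM. Divided by the TMM factors, gstp1.2 in M+D+ library 1 lay above all controls.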
